A study of Mus musculus with 24 samples.

Results

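The genes described here are 34 markers of the neurons of the inner retina, the bipolar, amacrine, horizontal and ganglion cells. They were found on the arrays by the gene symbol that the array annotation gives to a probe set, the set of oligonucleotides on the array that is read as 1 value for a transcript. Of the 34 genes, 33 had a probe set, which made 71 probe sets among 45037 probe sets and 18193 genes in all. No probe set carried the symbol Pou4f2, and that gene was not analysed here.

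The arrays measured RNA of whole retinas of BALB/c mice, an albino strain. According to the study's methods all mice were homozygous for a light-sensitive leucine variant of Rpe65, so hypoxic and normoxic animals carried it alike. Hypoxic mice were kept for 6 h at 6% oxygen, and the retinas were taken after 0, 2, 4 or 16 h of reoxygenation. The methods give room air and darkness for the reoxygenation of mice later exposed to light, and name no lighting for the array mice. Normoxic mice were handled in parallel and their retinas were taken at the same 4 time points. Each of the 8 groups held 3 arrays, each array held 1 pool of 3 retinas of different mice, and the age of the mice is not given in the sources used here. The study asked which genes a preconditioning hypoxia changes in the retina and how long these changes last.

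Bipolar cells pass the signal of rods and cones to the inner retina. Rod bipolar cells serve rods, cone bipolar cells serve cones, and horizontal cells adjust the signal at the first synapse. Amacrine cells, most of which release GABA or glycine, shape the signal at the second synapse, and ganglion cells send it through the optic nerve to the brain. Each type is recognised by transcription factors, calcium-binding proteins and transmitter genes, whose RNA is measured here in the whole tissue.

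All values are log2 signals, and a difference is hypoxia minus normoxia on that scale. Tests at a time point took in the probe sets with a hypoxic or normoxic mean of at least 6.69, the lowest point between the peaks of the distribution of all values. Differences were tested with limma, and a probe set passed at an adjusted p under 0.05. For a gene with several probe sets, the one with the strongest mean signal over the 24 arrays stands for it and is called the brightest. The markers were mostly measurable: 28 of the 33 genes had a probe set that was tested at 1 or more time points. The other 5 were Chat and Slc5a7 of cholinergic amacrine cells, Th of dopaminergic amacrine cells, and Onecut1 and Onecut2 of horizontal cells, and their probe sets stayed below the threshold in every group. Of the 71 probe sets, 49 were tested at 1 or more time points and 44 at all 4.

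Genes of neighbouring tissues varied between the pools. A list of 14 genes of the retinal pigment epithelium, the cell layer behind the retina, had summed log2 levels of 13.04 to 13.14 in the hypoxic pools at 0 h and of 10.60 to 10.80 in the normoxic pools. At 2 h these ranges were 11.62 to 12.71 and 10.93 to 12.06, and at 4 h 11.42 to 12.28 and 10.93 to 11.83. At 16 h the order was the other way, with 10.69 to 11.39 after hypoxia and 11.14 to 11.71 in normoxia. Of the 9 genes of this list tested at 0 h, 7 were higher (77.8%) and 1, Otor, was lower (11.1%). Among all genes tested at 0 h, 15.2% were higher and 18.7% lower. Tyr and Slc26a7 were below the threshold on every array. The summed level of 19 lens genes was 12.77 in normoxic pool 2 of 0 h, against 16.32 and 16.75 in the other normoxic pools and 16.11 to 17.30 in the hypoxic pools, and 0 of the 19 passed the test, with differences from 1.22 to 2.06 at 0 h. Normoxic pool 2 of 0 h and normoxic pool 3 of 16 h also lay farther from the other arrays than any other normoxic array. The part of these tissues in the differences below was not tested, except that values without the normoxic pool 2 are given.

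Most inner retinal markers did not pass the test at any time point, and those that passed were few and of mixed direction. At 0 h, 3 of 46 tested probe sets were higher after hypoxia (6.52%) and 6 were lower (13%). Among all 18799 probe sets tested at 0 h, 15.2% were higher and 17.2% were lower. By brightest probe set, 2 of 26 genes were higher and 2 were lower (7.69% each), while 15.2% and 18.7% of all 10173 genes were higher and lower. The median difference of the 26 genes was 0.02, and that of all genes tested was -0.01. Cabp5 and Isl1 were the lower genes, and Pou4f1 and Slc18a3 the higher ones. In bulk retina, fewer cells of a type and less RNA per cell cannot be told apart.

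After 2 h of reoxygenation, 1 of 46 probe sets was higher (2.17%), a probe set of Vsx1 that was tested only because its hypoxic mean reached the threshold, and 5 were lower (10.9%), against 9.19% and 7.38% of all probe sets tested. By gene, 0 of 27 were higher and 3 were lower (11.1%), namely Cabp5, Isl1 and Scgn, against 10.3% and 8.25% of all genes tested. At 4 h, 0 of 47 probe sets were higher and 1, of Scgn, was lower (2.13%), where 0.876% and 0.551% of all probe sets were higher and lower. An unadjusted p under 0.05 in limma's test was reached by 12 of the 47, and by 2877 of all 18498 probe sets tested. At 16 h none of 45 probe sets passed limma's test. The same holds for all 18423 probe sets tested then (0%). An unadjusted p under 0.05 was reached by 5 of the 45 and by 1172 of the 18423. None of the alternatives, the methods' t-test included, gave a call among the members at 16 h. The probe sets lower at both 0 h and 2 h numbered 4, of Cabp5, Pcp2 and Isl1. The share of all probe sets lower at both time points was not counted, so this number has nothing to be set against.

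**Figure D1:**
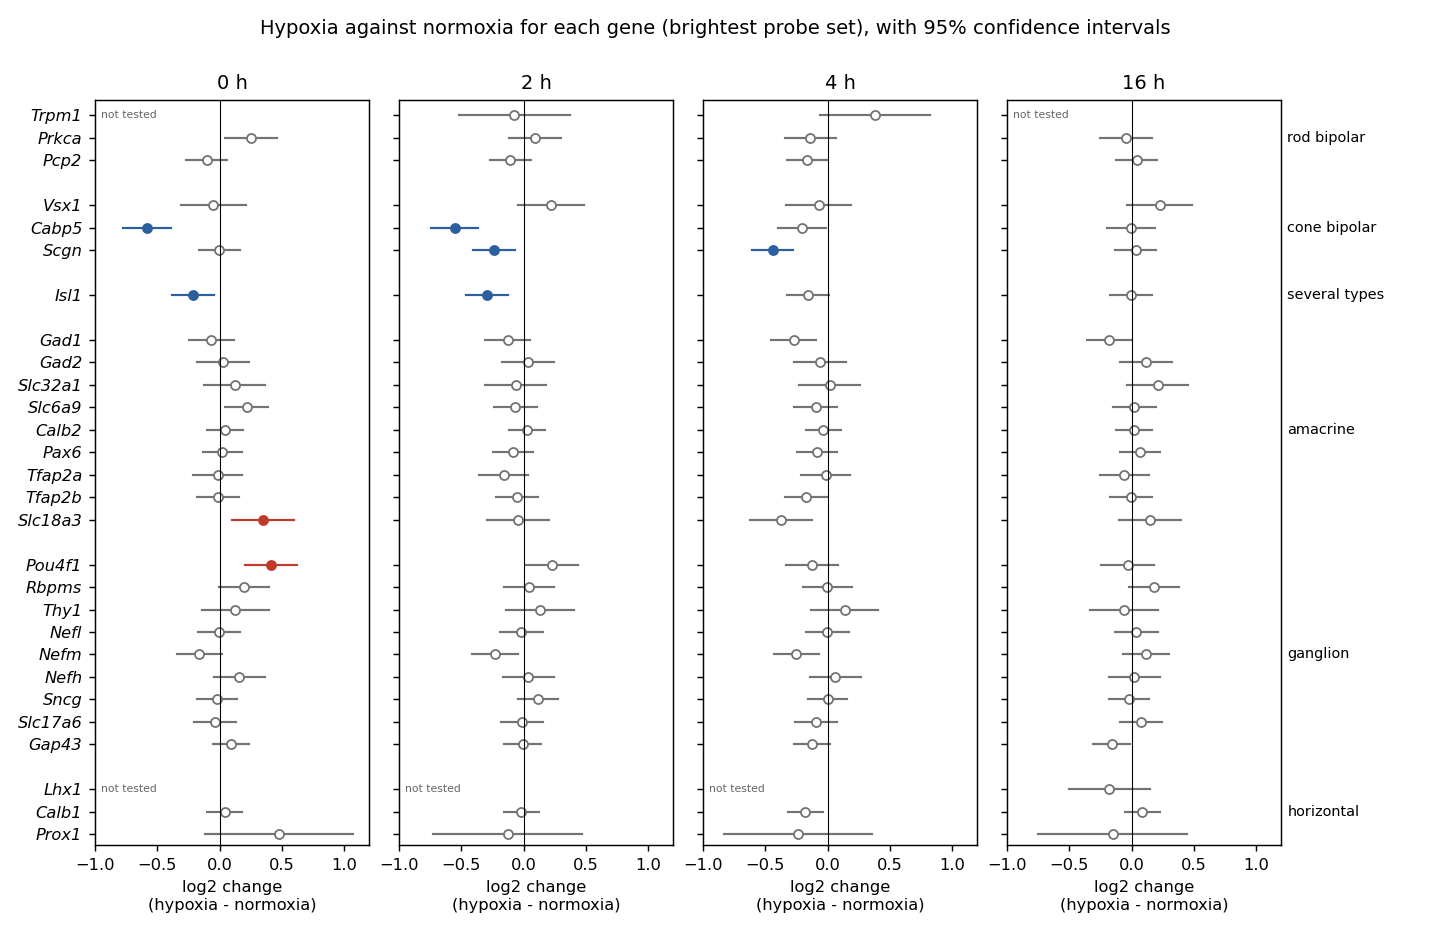
Differences in log2 signal (hypoxia minus normoxia, horizontal axis) of the brightest probe set of 28 genes at 0, 2, 4 and 16 h, with 95% confidence intervals. Blue filled points are lower and red filled points higher at an adjusted p under 0.05, open points did not pass, and the filled points are those of Cabp5, Isl1, Scgn, Slc18a3 and Pou4f1.

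The start regions of the 4 genes whose brightest probe set passed at 0 h are shown. Cabp5 and Isl1 were called lower, and Pou4f1 and Slc18a3 were called higher. The 0 h call of Isl1 was lost under 17 of 37 alternatives and that of Slc18a3 under 7 of 37. The windows are the 250 bases before the annotated start of each gene, in RefSeq on GRCm38.p6, printed 5′ to 3′ on the gene's strand. They lie at chr7:13397905-13398154 (Cabp5, plus strand), chr13:116309689-116309938 (Isl1, minus strand), chr14:104468000-104468249 (Pou4f1, minus strand) and chr14:32464851-32465100 (Slc18a3, minus strand). Capitals mark matches to 3 strings that were searched on both strands. They are ACGTG and GCGTG, the cores of the sequence that hypoxia-inducible factors bind, and TAATCC, a core bound by Crx and Otx2, homeodomain factors of photoreceptors and bipolar cells.
Cabp5: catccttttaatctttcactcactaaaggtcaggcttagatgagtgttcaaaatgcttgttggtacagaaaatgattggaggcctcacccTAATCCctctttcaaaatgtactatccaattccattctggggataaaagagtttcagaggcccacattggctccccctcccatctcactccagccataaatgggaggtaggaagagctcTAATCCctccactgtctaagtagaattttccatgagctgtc
Isl1: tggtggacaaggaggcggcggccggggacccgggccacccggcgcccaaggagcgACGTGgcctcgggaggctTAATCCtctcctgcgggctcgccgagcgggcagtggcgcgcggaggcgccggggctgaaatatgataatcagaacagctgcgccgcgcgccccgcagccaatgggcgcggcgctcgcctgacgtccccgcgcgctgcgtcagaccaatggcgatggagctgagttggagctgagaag
Pou4f1: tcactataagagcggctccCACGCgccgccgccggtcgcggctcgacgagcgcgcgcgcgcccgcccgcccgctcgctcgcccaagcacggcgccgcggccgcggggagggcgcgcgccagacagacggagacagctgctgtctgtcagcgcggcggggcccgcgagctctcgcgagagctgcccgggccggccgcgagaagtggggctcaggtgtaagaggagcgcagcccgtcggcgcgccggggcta
Slc18a3: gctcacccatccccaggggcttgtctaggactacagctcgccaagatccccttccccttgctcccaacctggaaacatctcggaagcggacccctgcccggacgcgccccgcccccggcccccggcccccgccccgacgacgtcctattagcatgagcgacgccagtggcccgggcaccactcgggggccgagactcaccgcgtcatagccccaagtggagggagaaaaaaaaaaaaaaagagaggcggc

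TAATCC stood at 2 places before Cabp5, from base 160 to 155 and from base 41 to 36 before the start. The window of Isl1 held ACGTG at bases 195 to 191 and TAATCC at bases 177 to 172. The window of Pou4f1 held GCGTG on the opposite strand at bases 231 to 227, where the printed strand reads its reverse complement, and that of Slc18a3 held none of the 3 strings. Windows were at hand for 25 of the 34 genes. ACGTG was found for 5 of these genes, GCGTG for 12 and TAATCC for 4, which besides Cabp5 and Isl1 were Gad1 and Trpm1. Some genes had several windows. By window, 5 of the 35 windows of these genes held ACGTG, 14 held GCGTG and 4 held TAATCC. Of all 32851 windows of this length, 16.57% held ACGTG, 28.16% held GCGTG and 6.25% held TAATCC, and a CACGTG counts for ACGTG on both strands. The windows had 44.0% G and C for Cabp5, 71.2% for Isl1, 78.0% for Pou4f1 and 66.0% for Slc18a3, with a median of 52.4% over all windows. The matches are a description of these letters, not of binding.

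Cabp5 encodes a calcium-binding protein of rod bipolar cells and of some cone bipolar types, and it was counted here with the cone bipolar genes. Its signal was 11.25, 11.09 and 11.17 in the hypoxic pools at 0 h and 11.84, 11.85 and 11.57 in the normoxic pools. Every hypoxic pool was below every normoxic pool. The difference was -0.58 (SE 0.09, adjusted p = 4.862e-05), a signal 33.3% lower. At 2 h the hypoxic pools had 11.04, 11.23 and 10.92 and the normoxic pools 11.66, 11.57 and 11.62, again with no overlap. The difference at 2 h was -0.55 (SE 0.09, adjusted p = 0.0004398).

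No call was made for Cabp5 later on. The difference was -0.21 (95% interval -0.40 to -0.02, adjusted p = 0.2731) at 4 h, and -0.00 (-0.19 to 0.19) at 16 h, where the pools of both treatments overlapped. Its effects at 0 h and 16 h differed by -0.58 (adjusted p = 0.003141). A second probe set of Cabp5 gave -0.59 at 0 h (adjusted p = 0.0001338), -0.54 at 2 h (0.001241), -0.20 at 4 h and 0.12 at 16 h. The 0 h differences of the pair were -0.53 and -0.56 without normoxic pool 2 of 0 h, which had little lens RNA. Both 2 h calls were lost with the methods' t-test (adjusted p = 0.08428 and 0.1057).

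Among the other bipolar markers the probe sets of a gene often differed. Pcp2, a modulator of G protein signalling found in rod bipolar cells, had 3 tested probe sets. The dimmest of these, 1424944_at, had 7.89, 8.47 and 8.30 in the hypoxic pools at 0 h and 8.86, 9.60 and 9.64 in the normoxic pools. All hypoxic pools were below all normoxic pools, and the difference was -1.14 (SE 0.17, adjusted p = 2.965e-05), a signal 54.7% lower and the largest difference of any tested member at any time point. At 2 h the values were 8.60, 8.62 and 8.87 after hypoxia and 9.03, 9.36 and 9.61 in normoxia, with a difference of -0.64 (SE 0.17, adjusted p = 0.01437). The brightest probe set of Pcp2 differed by -0.10 (95% interval -0.27 to 0.06) at 0 h and by -0.11 at 2 h, and the third by -0.07 and -0.10, and none of these passed. Without normoxic pool 2 of 0 h, 1424944_at gave -1.03. The 2 h call was lost without hypoxic pool 1 (-0.59, adjusted p = 0.06301) or normoxic pool 3 of 2 h (-0.50, adjusted p = 0.08742). With the methods' t-test both the 0 h call (adjusted p = 0.08329) and the 2 h call (0.1558) of 1424944_at were lost. Averaged over its probe sets, Pcp2 passed at 0 h and at 2 h.

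Prkca, the protein kinase by which rod bipolar cells are usually stained, showed opposite signs. Probe set 1450945_at had 8.78, 8.63 and 8.55 after hypoxia and 9.35, 9.15 and 8.96 in normoxia at 0 h, with no overlap, a difference of -0.50 (SE 0.11, adjusted p = 0.001566). A dimmer probe set, 1427562_a_at, with 7.69, 7.39 and 7.33 against 8.05, 7.82 and 7.74 and again no overlap, gave -0.40 (SE 0.15, adjusted p = 0.04483). The brightest probe set of Prkca went the other way, with 11.15, 11.35 and 11.22 after hypoxia and 11.05, 11.11 and 10.80 in normoxia. Its difference of 0.25 (95% interval 0.04 to 0.46) had an adjusted p of 0.05959 and did not pass, although its pools did not overlap. Without normoxic pool 2 of 0 h the 3 values were -0.50, -0.43 and 0.31. The brightest then passed (adjusted p = 0.03983) and 1427562_a_at did not (0.06649). The call of 1427562_a_at was lost on leaving out any of 11 of the 24 pools, with adjusted p-values up to 0.1683. The pools were hypoxic 2 and 3 and normoxic 1 and 2 of 0 h, hypoxic 3 of 2 h, hypoxic 1, 2 and 3 and normoxic 2 of 4 h, and hypoxic 1 and 3 of 16 h. It was also lost without a signal filter (adjusted p = 0.07865), with quantile normalization (0.05619), with the 6 arrays of the time point alone (0.05197) and with the methods' t-test (0.1471). The 0 h call of 1450945_at was lost only with the methods' t-test (adjusted p = 0.07791).

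During reoxygenation the signs of Prkca crossed. At 4 h the 2 dimmer probe sets were at 0.36 and 0.39 and the brightest at -0.14, and at 16 h they were at 0.30, 0.43 and -0.05, without any passing. For 1450945_at, 0 h minus 4 h gave -0.86 (adjusted p = 0.0006824) and 0 h minus 16 h gave -0.80 (adjusted p = 0.001112) as the differences of effects. Averaged over its probe sets, Prkca differed by -0.22 at 0 h (adjusted p = 0.07205), the opposite sign to the brightest alone. Whether probe sets of 1 gene differ in their response was not tested, and where they lie in the transcripts was not analysed here.

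**Figure D2:**
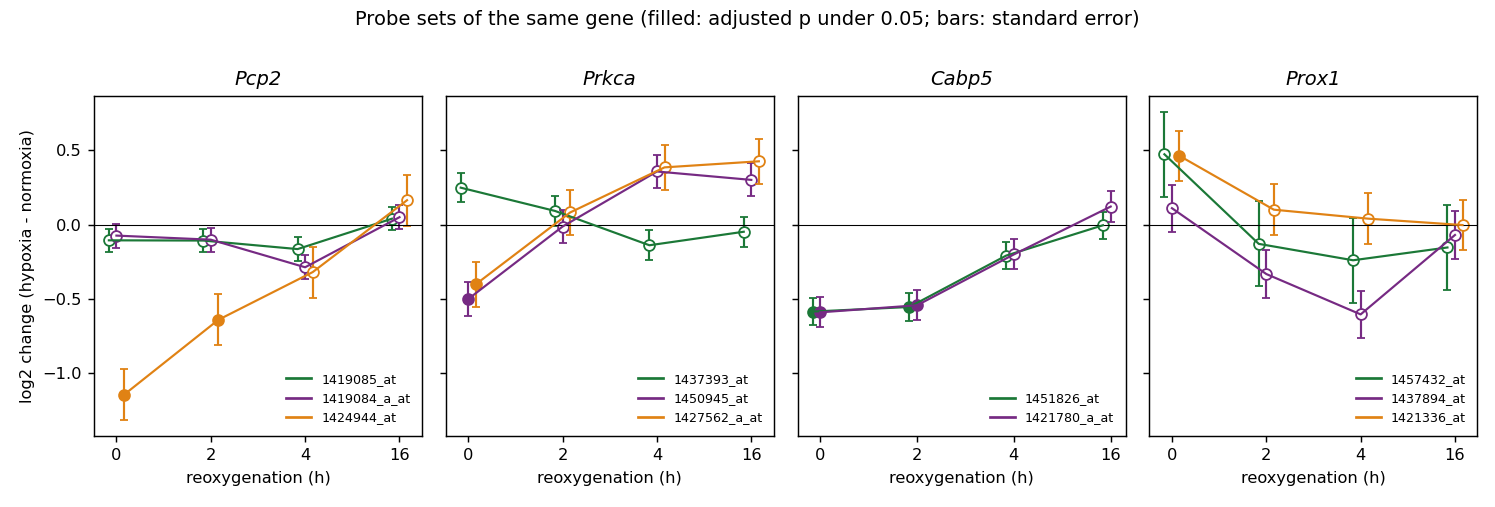
Differences in log2 signal (hypoxia minus normoxia, vertical axis) over 0, 2, 4 and 16 h of reoxygenation for the tested probe sets of Pcp2, Prkca, Cabp5 and Prox1, 1 colour for each probe set, with bars of 1 standard error. Filled points passed at an adjusted p under 0.05: both probe sets of Cabp5 lie together near -0.6 at 0 h, while 1 of 3 probe sets of Pcp2 and 2 of 3 of Prkca passed at 0 h.

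Isl1 encodes a LIM homeodomain factor of ON bipolar, cholinergic amacrine and ganglion cells. At 2 h its signal was 10.99, 11.07 and 11.11 after hypoxia and 11.30, 11.40 and 11.36 in normoxia, so every hypoxic pool was lower. The difference was -0.29 (SE 0.08, adjusted p = 0.01659), a signal 18.5% lower. At 0 h the hypoxic pools had 10.88, 11.08 and 10.97 and the normoxic pools 11.07, 11.11 and 11.39, and the ranges just overlapped. The difference of -0.22 (SE 0.08) had an adjusted p of 0.04464. A second probe set of Isl1 was at -0.25 at 0 h (adjusted p = 0.05873) and at -0.21 at 2 h, and the mean of both passed at 0 h (adjusted p = 0.02224) and 2 h (0.02519). By 16 h both were at -0.00.

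The 0 h call of Isl1 was lost under more of the alternatives than any other lower call. It was lost without any of 12 of the 24 pools, with adjusted p-values up to 0.2957 without normoxic pool 3 of 0 h (-0.12). Of 0 h these were hypoxic pools 1 and 3 and normoxic pool 3, of 2 h hypoxic 2 and 3, of 4 h hypoxic 1, 2 and 3 and normoxic 1, and of 16 h hypoxic 1 and 2 and normoxic 2. Without normoxic pool 2 of 0 h it was -0.26 and passed. The call was also lost without a signal filter (adjusted p = 0.07829), with median centring (0.0667), with the 6 arrays of the time point alone (0.2008) and with the methods' t-test (0.2655). The 2 h call was lost without hypoxic pool 1 (-0.26, adjusted p = 0.07809) or normoxic pool 2 of 2 h (-0.27, adjusted p = 0.0566), with the 6 arrays of the time point alone (0.07544) and with the methods' t-test (0.07234).

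Scgn encodes secretagogin, a calcium sensor of cone bipolar cells, and was the only member lower at 4 h. At 0 h the treatments overlapped, with 10.12, 10.04 and 10.12 after hypoxia and 10.17, 10.11 and 10.03 in normoxia (difference -0.00, 95% interval -0.17 to 0.16). At 2 h the hypoxic pools had 9.81, 9.87 and 9.61 and the normoxic pools 10.01, 10.03 and 9.96, a difference of -0.24 (SE 0.08, adjusted p = 0.04414). At 4 h they had 9.78, 9.79 and 9.66 against 10.12, 10.18 and 10.25, a difference of -0.44 (SE 0.08, adjusted p = 0.00546), or a signal 26.3% lower. The treatments did not overlap at either of these time points, and at 16 h the difference was 0.03 (95% interval -0.13 to 0.20). The 0 h and 4 h effects of Scgn differed by 0.44 (adjusted p = 0.009779), while that difference was -0.38 (adjusted p = 0.04981) for Cabp5, with the opposite sign. That call of Cabp5 was lost on leaving out any of 19 of the 24 pools. The second probe set of Cabp5 did not pass (adjusted p = 0.06655). The 2 h call of Scgn was lost without any of 11 pools, with adjusted p-values up to 0.224 without hypoxic pool 3 of 2 h (-0.16). The other 10 were hypoxic pool 1 and all normoxic pools of 2 h, hypoxic 3 and normoxic 2 of 0 h, hypoxic 1 and 2 and normoxic 2 of 4 h, and normoxic 2 of 16 h. It was also lost without a signal filter (adjusted p = 0.08365), with the 6 arrays of the time point alone (0.1649) and with the methods' t-test (0.1795), and the last pair also ended its 4 h call (0.08188 and 0.1288).

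Vsx1 encodes a homeodomain factor of cone bipolar cells. Its brightest probe set did not pass at any time point, with differences from -0.07 to 0.22. A dimmer one, 1422104_at, had 6.78, 6.78 and 6.88 after hypoxia and 6.19, 6.49 and 6.62 in normoxia at 2 h, a difference of 0.38 with no overlap. Its normoxic mean of 6.43 was below the signal threshold and it entered the test through the hypoxic mean alone, so its call is only counted here and read no further. That call was lost without hypoxic pool 1 (0.40, adjusted p = 0.05065), hypoxic pool 3 (0.35, adjusted p = 0.07222) or normoxic pool 1 of 2 h (0.26, adjusted p = 0.1243). Trpm1, the transduction channel of ON bipolar cells, is also a gene of pigment cells. Its brightest probe set was too dim to be tested at 0 h and 16 h and differed by -0.07 (95% interval -0.52 to 0.37) at 2 h and by 0.38 (-0.06 to 0.82) at 4 h.

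Of the amacrine cell genes only Slc18a3 passed by brightest probe set. At 0 h, 1 of 9 tested genes was higher (11.1%), 0 were lower, and the median was 0.03. Among all genes tested, 15.2% were higher and 18.7% were lower. Slc18a3 is the vesicular acetylcholine transporter of cholinergic (starburst) amacrine cells. It had 7.36, 7.04 and 7.39 after hypoxia and 6.99, 6.996 and 6.76 in normoxia, with hypoxic pool 2 just above the highest normoxic pool. The difference was 0.35 (SE 0.12, adjusted p = 0.02954), a signal 27.3% higher. At 4 h it was -0.37 (95% interval -0.62 to -0.12, adjusted p = 0.123), with 6.25, 6.47 and 6.55 against 6.74, 6.81 and 6.84, and the hypoxic mean was below the threshold. The 0 h and 4 h effects differed by 0.72 (adjusted p = 0.005047). The 0 h difference was 0.39 without normoxic pool 2. The 0 h call was lost without hypoxic pool 1 (0.30, adjusted p = 0.1083), hypoxic pool 3 (0.28, adjusted p = 0.1272) or normoxic pool 3 (0.27, adjusted p = 0.1388). This call of Slc18a3 was also lost without a signal filter (adjusted p = 0.05314), with the 6 arrays of the time point alone (0.07094) and with the methods' t-test (0.1624), and the stricter filter left the probe set untested. Chat and Slc5a7, the other genes of acetylcholine handling in the list, were below the threshold in every group.

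Slc6a9, the glycine transporter of glycinergic amacrine cells, did not pass at 0 h. It had 10.34, 10.30 and 10.43 after hypoxia and 10.21, 10.24 and 9.97 in normoxia, with no overlap and a difference of 0.22 (95% interval 0.04 to 0.39, adjusted p = 0.05111). It passed without normoxic pool 2 of 0 h (0.27, adjusted p = 0.03548), and also without normoxic pool 3 of 2 h, or pool 3 of either treatment at 16 h. Its second probe set was at 0.20 (adjusted p = 0.1087).

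The GABA genes did not pass at 0 h, and their intervals took in 0. Gad1 and Gad2, the enzymes that make GABA, were at -0.07 (95% interval -0.25 to 0.11) and 0.03 (-0.18 to 0.24). Slc32a1, which loads GABA and glycine into vesicles, was at 0.12 (-0.13 to 0.36). At 4 h Gad1 had 11.54, 11.47 and 11.52 after hypoxia and 11.77, 11.84 and 11.74 in normoxia, so all hypoxic pools were lower, but the difference of -0.27 did not pass (adjusted p = 0.122). Calb2, the calcium-binding protein calretinin, was at 0.04 (-0.10 to 0.18) at 0 h. The transcription factors Pax6, Tfap2a and Tfap2b of amacrine cells were at 0.02, -0.02 and -0.02. Over the 4 time points the 9 amacrine genes lay between -0.37 and 0.35.

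The ganglion cell genes had 1 higher (11.1%) and 0 lower of 9 at 0 h, with a median of 0.09. The shares of all genes tested were 15.2% higher and 18.7% lower. Pou4f1, the transcription factor Brn3a of ganglion cells, had 8.55, 8.47 and 8.44 after hypoxia at 0 h and 8.08, 8.07 and 8.08 in normoxia. The normoxic pools were almost equal and every hypoxic pool was higher, by 0.41 (SE 0.10, adjusted p = 0.003312), a signal 33.0% higher. It was 0.23 (95% interval 0.02 to 0.44, adjusted p = 0.1336) at 2 h, -0.12 at 4 h and -0.03 at 16 h. The effect of Pou4f1 at 0 h was above that at 4 h by 0.54 (adjusted p = 0.01193). It kept the 0 h call without any 1 pool, with differences from 0.38 to 0.43. Its other probe set was below the threshold in every group, and averaged with it the difference was 0.30 and did not pass (adjusted p = 0.1669).

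The other 8 genes of ganglion cells did not pass at any time point. Nefl, the light neurofilament chain, had 11.67, 11.70 and 11.78 after hypoxia and 11.80, 11.74 and 11.62 in normoxia at 0 h, with overlap and a difference of -0.01 (95% interval -0.18 to 0.16). Nefh, the heavy chain, was at 0.16 (-0.05 to 0.36). Nefm, the medium chain, was at -0.17 at 0 h, -0.23 at 2 h (95% interval -0.41 to -0.05, adjusted p = 0.07695) and -0.25 at 4 h (-0.43 to -0.07, adjusted p = 0.1568). At 2 h the Nefm call depended on the setting, since it passed without normoxic pool 2 of 2 h. Sncg, the synuclein of ganglion cells, and Slc17a6, their vesicular glutamate transporter, were at -0.02 and -0.04 at 0 h. Thy1, a surface protein, Rbpms, an RNA-binding protein, and Gap43, a protein of growing axons, were at 0.13, 0.20 and 0.09.

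Of the horizontal cell genes, Calb1, the calcium-binding protein calbindin, did not pass at any time point. Its brightest probe set ranged from 10.41 to 10.83 over the 24 pools and differed by 0.04 (95% interval -0.10 to 0.18) at 0 h. Prox1, a homeodomain factor of horizontal and AII amacrine cells, is also a gene of the lens. Its dimmest tested probe set, 1421336_at, had 8.40, 8.19 and 8.14 after hypoxia and 7.69, 7.67 and 7.98 in normoxia at 0 h, with no overlap. The difference was 0.46 (SE 0.17, adjusted p = 0.04028). The brightest probe set of Prox1 was at 0.47 (95% interval -0.12 to 1.07) and the remaining one at 0.11, and neither passed. The call of 1421336_at was lost without any of the hypoxic pools of 0 h or normoxic pools 1 and 2 of 0 h, with adjusted p-values from 0.05458 to 0.147, and also without a signal filter (0.07095) and with the methods' t-test (0.087). In the fit that left out normoxic pool 2, the pool low in lens RNA, it was 0.41. Lhx1, another homeodomain factor of horizontal cells, reached the threshold only at 16 h, with a difference of -0.18 (95% interval -0.50 to 0.14).

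**Figure D3:**
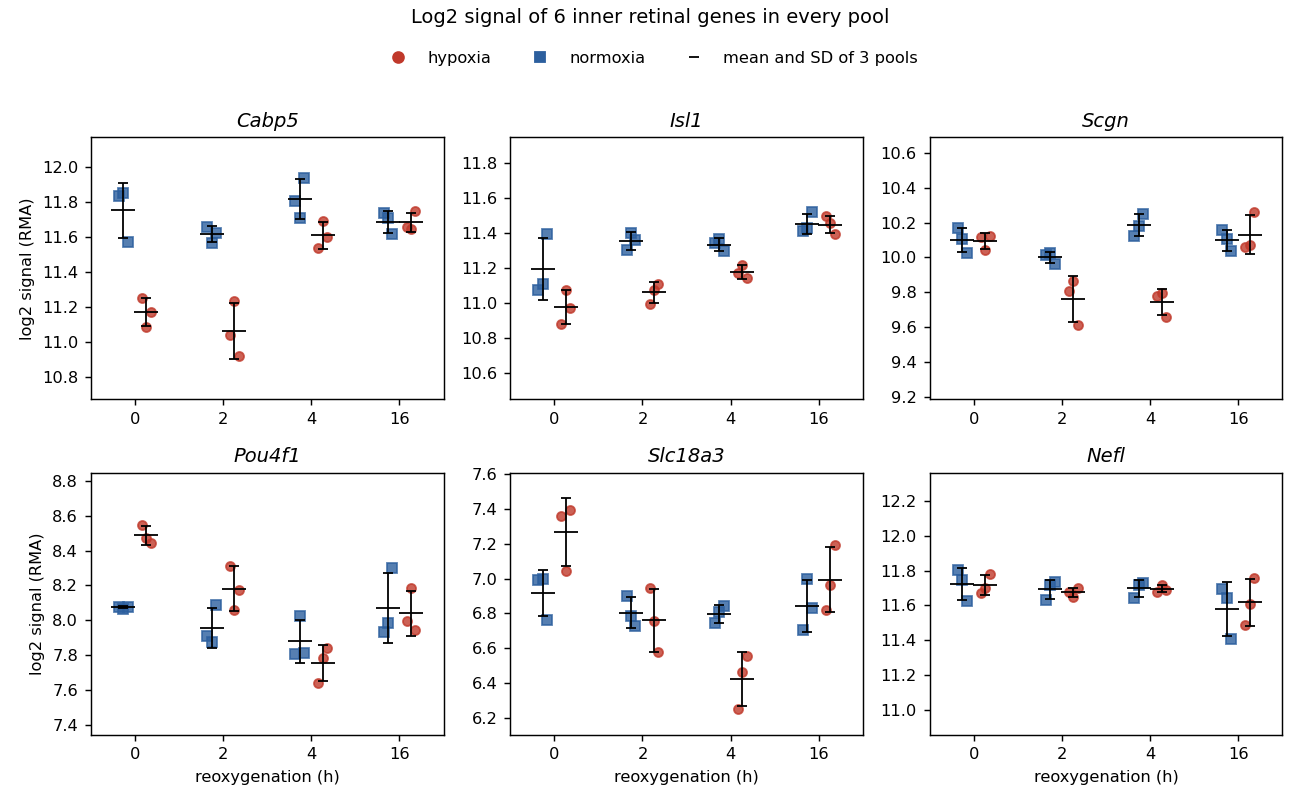
Log2 signal (RMA) of the brightest probe sets of Cabp5, Isl1, Scgn, Pou4f1, Slc18a3 and Nefl in every pool at 0, 2, 4 and 16 h of reoxygenation, red circles for hypoxia and blue squares for normoxia, with black lines for the mean and SD of 3 pools. Each panel has its own vertical range with a span of 1.5. Cabp5 is low after hypoxia at 0 and 2 h, Scgn at 2 and 4 h, Pou4f1 is high at 0 h, and the treatments overlap for Nefl.

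The change of effect over time was tested directly. Between 0 h and 2 h, no member passed limma's test of the difference, where 8.21% of all probe sets did. Of the 47 tested, 5 had an unadjusted p under 0.05, and the share of all probe sets under that value was not counted. Between 0 h and 4 h, 9 of 48 passed, against 16.9% of all probe sets, and between 0 h and 16 h, 6 of 47 passed, against 20.6%. These comparisons share the 0 h arrays. Those that passed in both were probe sets of Prkca, Pcp2, Cabp5 and Pou4f1.

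The normoxic groups themselves differed for few members. Among the 4 normoxic groups 3 of 47 probe sets passed, against 3.54% of all, and none was the brightest of its gene. They were the second probe set of Cabp5, with means from 10.70 at 16 h to 11.12 at 4 h (adjusted p = 0.03584), 1425960_s_at of Pax6, from 7.07 to 7.92 (adjusted p = 0.03697), and 1422104_at of Vsx1, from 6.35 to 6.78 (adjusted p = 0.04197). The means of the Vsx1 probe set at 2 h (6.43) and 16 h (6.35) were below the threshold. It entered the test through its 0 h and 4 h means alone, so its call is only counted. None of the 3 passed with the 12 normoxic arrays alone. Normoxic pool 3 of 16 h held the lowest of the 24 values for this probe set of Pax6, 6.40, and without that pool 0 of the 3 passed. Over all members, the number that passed was also 0 without normoxic pool 2 or 3 of 0 h, pool 2 of 2 h, or pool 1 or 3 of 4 h. It was 1 without pool 1 of 2 h (the same probe set of Pax6), 1 without pool 2 of 4 h (none of the 3 named), and 6 without pool 2 of 16 h.

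Further genes of the same cell types were called about as often as all genes at 0 h in the higher direction. Of 91 other inner retinal genes with a probe set, 70 were tested at 0 h, of which 11 were higher (15.7%) and 7 were lower (10%), against 15.2% and 18.7% of all genes tested, with a median of 0.09. At 2 h, 2 of 69 were higher (2.9%) and 4 were lower (5.8%), against 10.3% and 8.25% of all genes, with a median of -0.03. At 4 h and 16 h none of 69 and 68 passed limma's test, with 8 and 2 at an unadjusted p under 0.05. Of all probe sets tested, 2877 of 18498 and 1172 of 18423 were under that value at these time points. Of 27 other bipolar genes tested at 0 h, 5 were higher (18.5%) and 4 were lower (14.8%). Bhlhe23, a transcription factor of rod bipolar cells, had means of 7.59 after hypoxia and 6.63 in normoxia, and since the normoxic mean was below the threshold it entered the test through the hypoxic mean alone and its call is only counted. Nnat, neuronatin, was higher by 0.76 (SE 0.23, adjusted p = 0.01548). Strip2 was lower, with a difference of -0.75 (SE 0.15, adjusted p = 0.0004886). Neto1, an auxiliary subunit of glutamate receptors, was higher by 0.59 (SE 0.12, adjusted p = 0.0006869).

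Of 19 other amacrine genes tested at 0 h, 4 were higher (21.1%) and 0 lower. They were Penk, the precursor of enkephalin peptides (0.81, adjusted p = 0.02934), Ebf3 (0.28), C1ql2 (0.25) and Cck, the peptide cholecystokinin (0.25). Of 17 other ganglion cell genes, 1 was higher (5.88%), Nrn1 (0.26, adjusted p = 0.005607), and 3 were lower (17.6%), Sox4 (-0.35), Elavl4 (-0.35) and Kcng4, which entered the test through its normoxic mean alone (6.82, against 6.50 after hypoxia). The only other horizontal cell gene to pass, of 7 tested, was Ndrg1 (0.66, adjusted p = 6.126e-07), which is also a widely known hypoxia target. Neighbouring cell types are given for comparison. At 0 h, 0 of 20 rod and cone genes were higher and 5 were lower (25%), with a median of -0.08. Of 15 genes of Mueller glia, 3 were higher (20%) and 0 lower, with a median of 0.08. Among all genes tested at 0 h, 15.2% were higher and 18.7% were lower. Some of the rod and cone genes were also lower at the times when Cabp5, Isl1 or Scgn was. At 2 h, 6 of 20 were lower (30%, median -0.16), against 8.25% of all genes. At 4 h, 2 of 20 were lower (10%, median -0.12), against 0.551% of all probe sets. The share of all genes was not counted at 4 h. At 16 h, 0 of the rod and cone genes were lower (median 0.04). Their part in the differences of the bipolar markers was not tested.

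**Figure D4:**
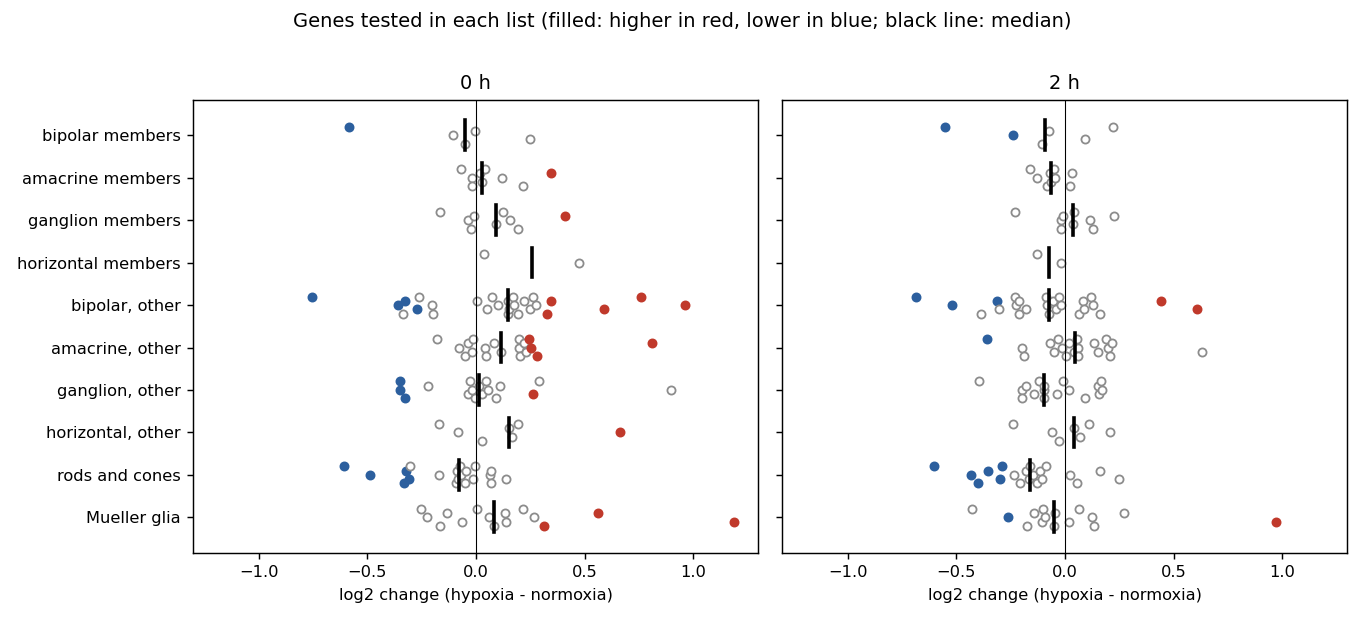
Differences in log2 signal (hypoxia minus normoxia, horizontal axis) of every tested gene, by its brightest probe set, in each list at 0 h and 2 h, filled red for higher and blue for lower at an adjusted p under 0.05, with a black line at the list's median. The members (Isl1, which marks several types, is left out) stay mostly within 0.5 of 0, and the other bipolar genes reach from -0.75 to 0.96 at 0 h, the highest being Bhlhe23, whose normoxic mean was below the threshold.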

How the data were processed

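RNA of 24 pools of retinas was hybridised to Affymetrix mouse arrays. The deposited log2 values were made by the authors with RMA, per the labels, a method that removes background, brings the arrays to 1 distribution and summarises the oligonucleotides of each probe set. No version is given, and the GCRMA values of the paper were not used here. After 64 control probe sets were left out, 45037 remained, of which 34945 carry 1 gene symbol. Array medians lay between 5.80 and 5.83, and the number of arrays limits the precision. No pair of arrays were copies (highest correlation 0.997).

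A single limma model (version 3.58.1, R 4.3.3) with a mean for each of 8 groups was fitted to the 24 arrays together (16 residual degrees of freedom). Benjamini-Hochberg adjustment was made over all probe sets tested in a comparison. All adjusted p-values in the text come from this limma model or, where an alternative is named, from that alternative. The methods' t-test is an ordinary t-test without limma, made here on the RMA values. It is named after the t-tests of the paper, which used the OCplus package on GCRMA values, and does not repeat them. The code was tested on simulated data. Every member with a probe set is named, by its brightest probe set with 1 symbol, and in lists of other genes up to 4 that passed with the largest differences at 0 h. The members and lists were chosen with earlier results of these data known. The alternatives were no or a stricter signal filter, quantile normalization, median centring, other estimates of the spread, array weights, leaving out probe sets that may match several genes, a looser threshold, a replicate block, fits to a single time point, the methods' t-test, averaging the probe sets per gene, and fits without single pools. The replicate numbers did not count as pairs, since, after group means were removed, same-numbered arrays of a time point correlated between -0.227 and 0.237, and 2 of 12 were above 0.1.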

Additional observations from a re-analysis of the deposited data

Results flagged for a closer look

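The hypoxia effect of several members at 0 h differed from that at a later time point in limma's test of the difference, which is why they are listed. The comparisons with 4 h and with 16 h share the 0 h arrays.

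The 2 dimmer probe sets of Prkca turned from lower at 0 h to above 0 later. The 0 h effect was below that at 4 h by -0.86 for 1450945_at and by -0.79 for 1427562_a_at (adjusted p = 0.0006824 and 0.01288), and below that at 16 h by -0.80 and -0.83 (adjusted p = 0.001112 and 0.008152). For Pcp2, 1424944_at, the differences were -0.83 against 4 h (adjusted p = 0.02259) and -1.31 against 16 h (0.0006584). That against 4 h was lost without hypoxic pool 1, normoxic pool 2 or normoxic pool 3 of 0 h or hypoxic pool 3 of 4 h. For Cabp5 the brightest probe set gave -0.38 against 4 h (adjusted p = 0.04981) and -0.58 against 16 h (0.003141), and the second, 1421780_a_at, gave -0.39 against 4 h (adjusted p = 0.06655, not passing) and -0.71 against 16 h (0.001367). The call of Cabp5 against 4 h was lost on leaving out any of 19 of the 24 pools, the exceptions being normoxic pool 3 of 0 h, hypoxic pools 2 and 3 of 2 h, normoxic pool 3 of 4 h and normoxic pool 3 of 16 h.

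In the other direction, Scgn differed by 0.44 against 4 h (adjusted p = 0.009779) and Slc18a3 by 0.72 (0.005047). Pou4f1 differed by 0.54 against 4 h (adjusted p = 0.01193) and by 0.44 against 16 h (0.03164), and the latter was lost without hypoxic pool 1 or normoxic pool 2 or 3 of 0 h, or hypoxic pool 1 or 3 or normoxic pool 3 of 16 h. The second probe set of Slc6a9 differed by 0.43 against 4 h (adjusted p = 0.0256), from 0.20 at 0 h to -0.23 at 4 h, neither of which passed alone. This was lost without pool 3 of either treatment at 0 h, hypoxic pool 3 of 4 h or normoxic pool 1 of 4 h. For Prox1, 1437894_at differed by 0.71 against 4 h (adjusted p = 0.03131), from 0.11 to -0.60, also with neither passing alone. It was lost without hypoxic pool 3 or normoxic pool 1 of 0 h, hypoxic pool 1 or 2 of 4 h, or normoxic pool 2 or 3 of 4 h.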

How the results depend on the processing

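No difference that passed changed sign under any alternative run, and the calls of Cabp5 at 0 h and of Pou4f1 at 0 h held under every alternative on single probe sets. The counts of members that passed moved more. How many of all probe sets passed under each alternative, fits without single pools included, was not counted. Shifts of the member counts can therefore not be told apart from shifts of the whole array. The 3 higher probe sets at 0 h became 5 with a trended and robust spread, with array weights and at an adjusted p under 0.1, and 1 with the methods' t-test. The 6 lower ones at 0 h became 2 with the methods' t-test. The 1 higher probe set at 2 h became 0 with the stricter filter, with the 6 arrays of the time point alone and with the methods' t-test, and the 5 lower ones became 3 with the 6 arrays alone and 0 with the methods' t-test. At 4 h, 1 probe set was higher with array weights. The 1 lower at 4 h became 2 with quantile normalization, 4 with a trended and robust spread and with array weights, 3 at an adjusted p under 0.1, and 0 with the 6 arrays alone and with the methods' t-test. For the 0 h effect against that at 2 h, 0 became 1 with a trended and robust spread and at an adjusted p under 0.1, and 2 with array weights. The 3 calls among normoxic groups became 0 without a filter and with the 12 normoxic arrays alone, 6 with a trended and robust spread and 8 at an adjusted p under 0.1. The causes were not tested.

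With a replicate block within each time point, the 1 lower probe set at 4 h became 2 and the 0 calls of the 0 h effect against 2 h became 1. Lost under it were the calls of Isl1 at 0 h (adjusted p = 0.07632), Scgn at 2 h (0.1018), Cabp5 at 0 h against 4 h (0.1051) and Pou4f1 at 0 h against 16 h (0.06119), while the second probe set of Isl1 at 0 h, 1437894_at of Prox1 at 4 h and 1450945_at of Prkca at 0 h against 2 h came to pass. With a replicate block over all time points, 1427562_a_at of Prkca at 0 h (0.05132) and Cabp5 at 0 h against 4 h (0.05518) were lost and the second probe set of Isl1 at 0 h came to pass. The labels do not say whether pools with the same number were handled together, so these do not stand as paired results.

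Leaving out 1 pool in turn gave 1 to 4 higher and 4 to 7 lower probe sets at 0 h, 0 to 1 and 2 to 5 at 2 h, and 0 and 1 to 2 at 4 h. Of effect differences it gave 0 to 1 against 2 h, 6 to 10 against 4 h and 5 to 8 against 16 h, and 0 to 6 calls among normoxic groups. The lowest count at 0 h, 1 higher, came without hypoxic pool 1 or 3 of 0 h, and the lowest at 2 h, 2 lower, without hypoxic pool 1 of 2 h (3 without normoxic pool 3 of 2 h). The 2 lower at 4 h came without normoxic pool 1 of 0 h, hypoxic pool 2 of 2 h or normoxic pool 3 of 16 h, and the 1 call against 2 h without normoxic pool 1 or 3 of 0 h, hypoxic pool 1 of 2 h or normoxic pool 3 of 16 h. Leaving out normoxic pool 2 of 0 h and normoxic pool 3 of 16 h together, an alternative chosen after seeing the data, gave 5 higher at 0 h, 2 lower at 4 h and 0 among normoxic groups. With 3 pools a group, and with 22 of 71 probe sets below the threshold at all time points, small differences and dim genes could not be resolved.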
